A study of Homo sapiens with 16 samples.

Results

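The complement genes described here are 32 rows of a gene count table, chosen by gene name from the components and regulators of the classical, lectin, alternative and terminal pathways, out of 58735 genes in all. All 32 passed the filter on low counts that left 18121 genes for testing, so none dropped out. Several lie in clusters (GRCh38): C8A and C8B at chr1:56854806-56966140, the CFHR genes at chr1:196774795-197009674, C4BPB, C4BPA, CD55 and CD46 at chr1:207088842-207795513, C2, CFB, C4A and C4B at chr6:31897785-32035418, and C1S and C1R at chr12:6988259-7092607. The RNA came from HepaRG, a single human liver tumour line whose differentiated cultures hold hepatocyte-like and cholangiocyte-like cells. Differentiated cells were kept throughout in medium with 2% DMSO, serum, insulin and the glucocorticoid triamcinolone acetonide, and were treated for 3 days. Control cells received the vehicle, given as 1% BSA. No BSA content is stated for the treated groups, so whether the vehicle differed is not known. The formoterol group received 30 nM of this beta2-adrenergic agonist. The fatty acid group received 0.25 mM palmitic and 0.5 mM oleic acid as sonicated sodium salts. The combination group received all 3 agents. Each group had 4 libraries, 16 in all, with 32471299 to 65673126 counts per library. They are labelled as independent replicates. Whether each was a culture of its own is not stated, and the p-values reflect no more than the variation among these libraries, which may be technical.

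Complement is a cascade of plasma proteins, most of them made by hepatocytes, that tags and lyses microbes and damaged cells. The classical pathway starts with C1 on antibody and the lectin pathway with mannose-binding lectin and its proteases, and both cleave C4 and C2 to build a C3 convertase. The alternative pathway builds its own convertase from C3b, factor B and factor D, stabilised by properdin. Either convertase leads to cleavage of C5 and to assembly of C6, C7, C8 and C9 into the membrane attack complex. Soluble and membrane-bound regulators hold the cascade in check on host cells.

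Before any result, one library has to be named. Combination replicate 2 lay below the other 3 combination libraries for 25 of the 32 members, above them for 3 and within their range for 4, and its spread enters every test through the shared fit. Values are therefore given with it and, where a call changes, without it. Control replicate 3 was the lowest of the 4 control libraries for 21 of the 32 members. Levels are CPM, counts scaled to a common library size with TMM factors. Changes are log2 fold changes ± SE from edgeR's quasi-likelihood fit over the 16 libraries, and a gene is called where its Benjamini-Hochberg adjusted p over all 18121 genes is under 0.05. The SE was derived from the test, as the size of the log2 change divided by the square root of its F value.

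C3, 3 soluble regulators and the protease C1S had the highest control levels among the members. Per kilobase of gene length, the scale used to set genes side by side, C3, the shared substrate of all pathways, stood at 762 ± 27.2 CPM per kb (SD, n = 4). Clusterin, the chaperone CLU that binds terminal complexes, followed at 615 ± 42.5 CPM per kb. SERPING1, the C1 inhibitor, stood at 324 ± 4.92 CPM per kb, VTN, vitronectin, at 300.2 ± 43.7 and C1S at 286 ± 11.4. The VTN libraries span those of C1S and reach those of SERPING1, so the place of VTN in this order is not resolved. The order also depends on the length used. The table's gene lengths exceed those of the longest coding transcripts for C3 (8328 against 5263 bases), CLU (6616 against 3080), C1S (6462 against 3076) and SERPING1 (3603 against 2231). The order of C3 and CLU, and that of SERPING1 and C1S, is therefore not resolved. The genes of the terminal pathway covered a wide range, from C6 at 66.6 ± 10.2 and C5 at 42.3 ± 7.68 CPM per kb to C8B at 1.61 ± 0.692 and C7 at 0.216 ± 0.108. At the low end, MBL2, mannose-binding lectin, stood at 0.170 ± 0.0513 CPM per kb and CFP, properdin, at 0.0614 ± 0.0297. Their order is likewise not resolved, as the gene length of CFP is 5617 bases and its longest coding transcript 1713. Together the members took between 1.52% of a library's counts, in combination replicate 2, and 2.06%.

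**Figure D1:**
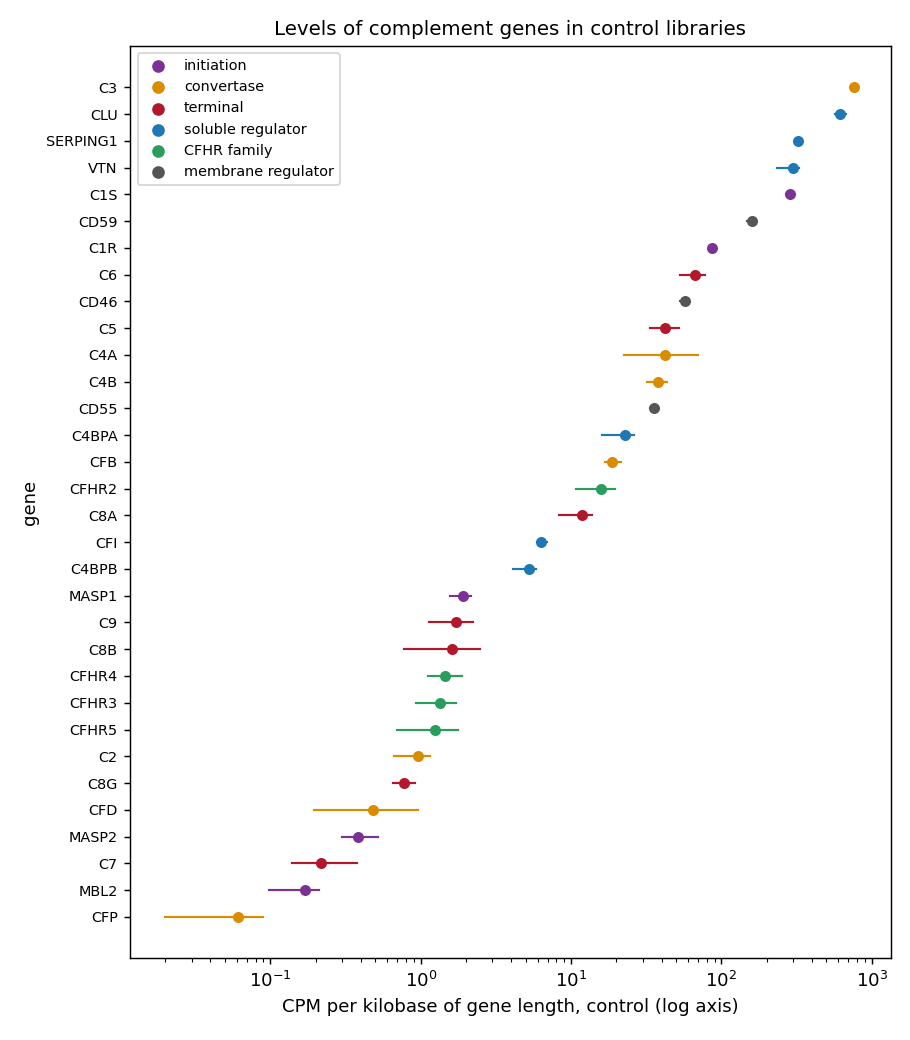
Mean level of each complement gene over the 4 control libraries in CPM per kilobase of gene length on a log axis, with lines from the lowest to the highest library and colours by role. With these gene lengths, C3 and CLU lie at the top and CFP at the bottom.

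With fatty acids alone, 10 of the 32 members rose and 2 fell, against a background of 8.93% of all tested genes called higher and 7.62% called lower. The rises were C2, C4BPA, C5, C6, C8B, CFB, CFHR3, CFI, MASP1 and VTN, and the falls were the membrane regulators CD55 and CD59. With formoterol alone, 13 rose and 0 fell by edgeR, against 5.76% and 4.57% of all genes. DESeq2 called 12 higher and 0 lower, and 1 member, C1R, was lower at an unadjusted p under 0.05. The shares of all genes in these other settings are not given here. The 13 were C2, C4BPA, C4BPB, C5, C6, C8A, C8B, CFHR2, CFHR3, CFHR4, CFI, MASP1 and VTN. The median log2 change over the members was 0.50 with fatty acids, beside 0.01 over all genes, and 0.42 with formoterol, beside -0.00217. Both comparisons use the same 4 control libraries and are not independent of each other. Without combination replicate 2 the counts were 16 up and 2 down with fatty acids (background 10.6% and 8.75%) and 15 up and 1 down with formoterol (background 8.00% and 5.98%). The added rises were C4BPB, C8A, C8G, C9, CFHR2 and CFHR4 with fatty acids and C9 and CLU with formoterol. Without control replicate 3, 5 rose and 2 fell with fatty acids (background 6.82% and 6.14%), and 7 rose and 0 fell with formoterol (background 2.93% and 2.47%).

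Hepatocyte markers moved with the rising genes. The summed level of 8 hepatocyte markers, ALB, APOA1, ASGR1, CYP3A4, HNF4A, SERPINA1, TF and TTR, ranged over 21155 to 32432 CPM in control, 49708 to 54445 CPM with formoterol, 43337 to 49391 CPM with fatty acids and 17024 to 47726 CPM with the combination. Of the 8, 5 rose with fatty acids and 6 with formoterol, beside 8.93% and 5.76% of all tested genes. Without combination replicate 2, 7 rose with each agent, beside 10.6% and 8.00%. With the combination, 3 rose and 1 fell against control, beside 7.58% and 6.68%. Without that replicate, 6 rose and 1 fell, beside 8.51% and 6.67%. On adding fatty acids to formoterol, 3 fell and 0 rose, beside 8.97% and 9.48%. Without that replicate, 4 fell and 0 rose, beside 7.41% and 7.17%. The part of these markers in the complement result was not tested. In bulk RNA, fewer cells of a type and less RNA per cell cannot be told apart. The summed cholangiocyte markers ranged over 163 to 167 CPM in control, 189 to 198 with formoterol, 314 to 368 with fatty acids and 256 to 332 with the combination, with EPCAM at 0 counts. Of these 7, KRT19 and CD24 rose and SOX9 fell with fatty acids, beside 8.93% called higher and 7.62% called lower over all tested genes. Of 8 macrophage and leukocyte markers, PTPRC, CD68, MARCO and AIF1 stayed at or under 0.268 CPM in every library, and the list summed to at most 34.9 CPM. Most of that sum was CD14, at 12.0 to 30.5 CPM, with CD74 at 1.48 to 4.12 CPM, CD163 at up to 1.07 CPM and CSF1R at up to 0.387 CPM. CD74 was called higher with fatty acids, at 0.78 ± 0.23 (edgeR adjusted p = 0.0256), and CD14 lower on adding fatty acids to formoterol, at -0.45 ± 0.15 (edgeR adjusted p = 0.0468). The 7 stellate cell and fibroblast markers summed to 639 to 803 CPM in control, 469 to 512 with formoterol, 757 to 886 with fatty acids and 606 to 765 with the combination. The 5 endothelial markers, of which KDR held most, summed to 117 to 133, 38.9 to 50.6, 158 to 171 and 52.6 to 107 CPM in the same order.

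**Figure D2:**
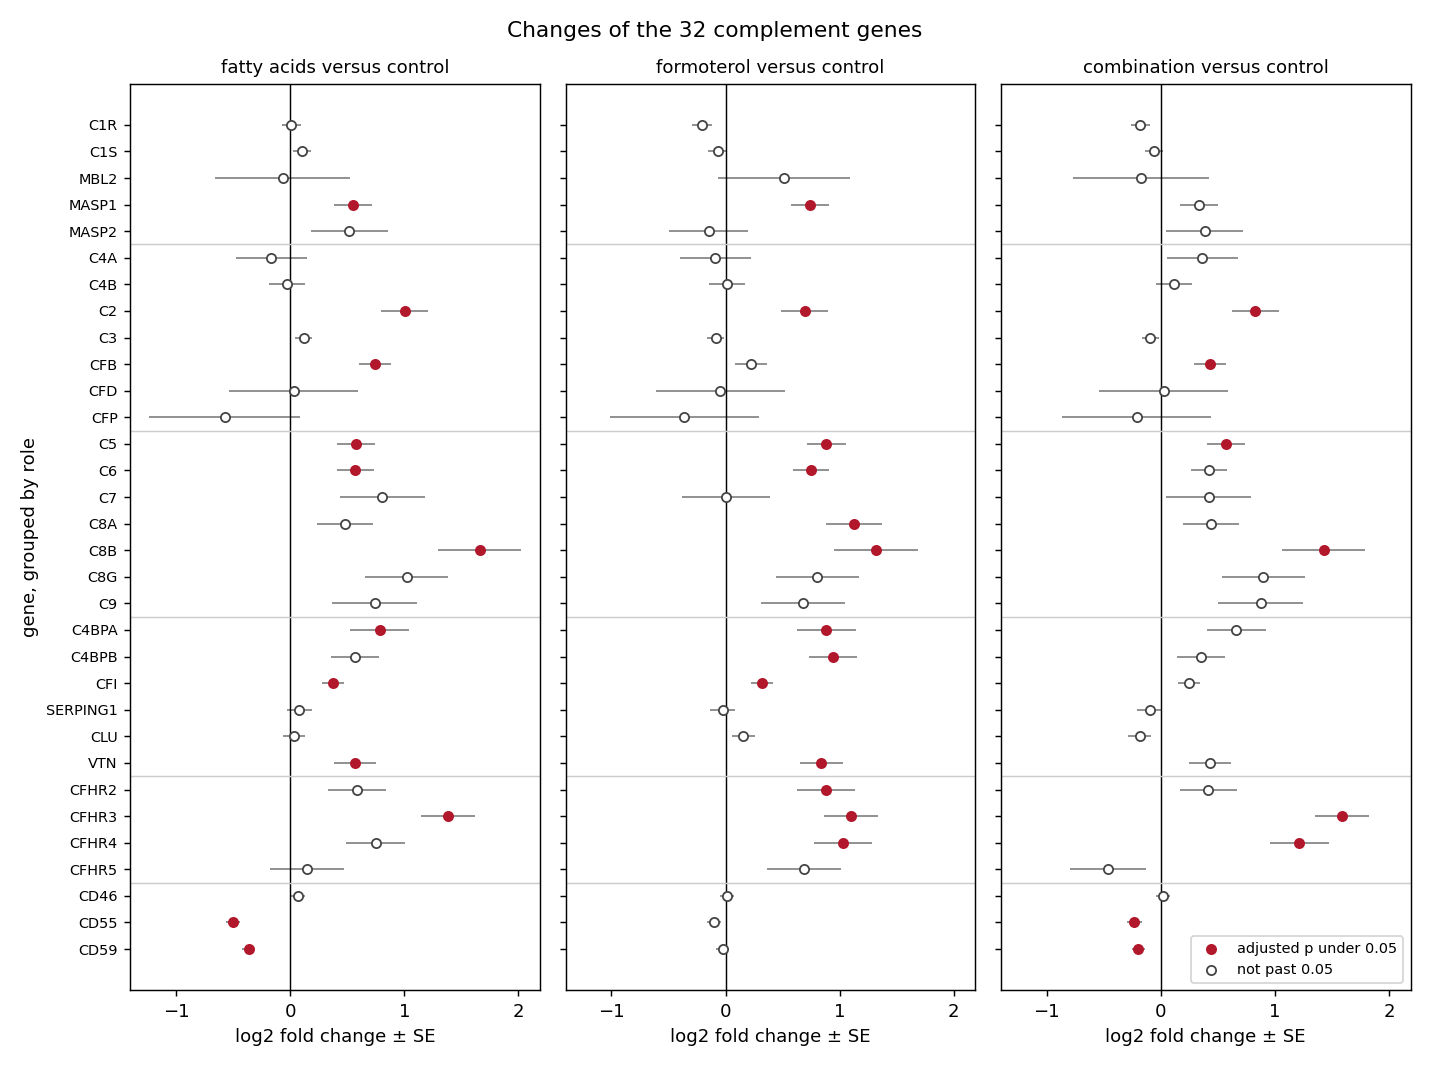
Log2 fold change ± SE of each complement gene against control for fatty acids, formoterol and the combination, with genes grouped by role and filled points for adjusted p under 0.05. C8B and CFHR3 lie far to the right in all 3 panels, and CD55 and CD59 lie left of 0 with fatty acids and with the combination.

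Of the 5 initiation genes, 1 rose with each agent, beside 8.93% of all tested genes with fatty acids and 5.76% with formoterol. MASP1, which encodes proteases of the lectin pathway, stood at 28.3, 28.05, 20.7 and 24.2 CPM in control, 46.1, 36.97, 43.3 and 43.2 CPM with formoterol, 38.6, 34.7, 40.02 and 34.9 CPM with fatty acids and 36.2, 17.03, 38.6 and 35.6 CPM with the combination. Every fatty acid and formoterol library lay above every control library. The change was 0.55 ± 0.17 (edgeR adjusted p = 0.0267) with fatty acids and 0.74 ± 0.17 (edgeR adjusted p = 0.00638) with formoterol. C1R, the protease that activates C1s, stood at 519, 491, 519 and 503 CPM in control, 412, 466, 419 and 463 CPM with formoterol, 513, 474, 510.2 and 549 CPM with fatty acids and 491, 345, 501 and 456 CPM with the combination. The formoterol value of C1R was -0.21 ± 0.09 (edgeR adjusted p = 0.136), and without combination replicate 2 it was called lower at -0.21 ± 0.05 (edgeR adjusted p = 0.0110). About 22.5% of the 100-base windows of its main transcript also occur in the neighbouring gene C1RL, so some of its reads may be shared. C1S, which cleaves C4 and C2, ranged over 1737 to 1891 CPM in control and 1689 to 1831 CPM with formoterol and was called in no comparison. MBL2 and MASP2, the lectin and its C4-cleaving protease, were low, with control ranges of 0.348 to 0.757 CPM and 1.28 to 2.21 CPM. These were 12 to 27 counts per control library for MBL2 and 43 to 79 for MASP2. The MASP1 call with fatty acids was lost when a single library was left out, namely control replicates 3 and 4 or fatty acid replicates 1 and 3 (adjusted p up to 0.0952).

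Of the 7 convertase genes, 2 rose with fatty acids and 1 with formoterol, beside 8.93% and 5.76% of all tested genes. CFB, factor B, the protease of the alternative pathway convertase, stood at 95.5, 108, 83.6 and 85.1 CPM in control, 114, 118, 109 and 94.2 CPM with formoterol, 151, 148, 161 and 164 CPM with fatty acids and 143, 76.2, 152 and 132 CPM with the combination. All 4 fatty acid libraries lay above all control and all formoterol libraries. The fatty acid change was 0.74 ± 0.14 (edgeR adjusted p = 0.000728), a 1.68-fold rise, and the formoterol value was 0.22 ± 0.14 (edgeR adjusted p = 0.357). C2, the classical counterpart of factor B, stood at 5.05, 6.41, 3.67 and 6.26 CPM in control, 8.97, 8.03, 8.40 and 9.20 CPM with formoterol, 11.9, 10.7, 9.68 and 10.6 CPM with fatty acids and 10.4, 4.94, 10.8 and 11.7 CPM with the combination. Its change was 1.00 ± 0.21 (edgeR adjusted p = 0.00159) with fatty acids and 0.69 ± 0.21 (edgeR adjusted p = 0.0336) with formoterol. Both genes share most of their transcript windows with a read-through gene model that spans them, 77.9% for CFB and 55.1% for C2, and that model had 0 counts in all libraries, so how reads in the shared exons were assigned is not known. The C2 call with formoterol was lost with library totals alone as the scale (edgeR adjusted p = 0.0509) and without control replicates 1 and 3 or formoterol replicates 1, 3 and 4 (adjusted p up to 0.128). C3 stood at 6238, 6537, 6085 and 6539 CPM in control, 6221, 6135, 5984 and 5609 CPM with formoterol, 7214, 6165, 7381 and 6794 CPM with fatty acids and 6366, 4838, 6554 and 6059 CPM with the combination, with control and treated ranges that overlap, and at 0.12 ± 0.08 (edgeR adjusted p = 0.336) with fatty acids. CFD, factor D, ranged over 0.238 to 1.17 CPM in control and CFP over 0.112 to 0.504 CPM, and neither was called.

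The 2 copies of C4, which supplies the C4b subunit of the classical convertase, need their sequences shown, because reads can tell them apart at few places. Their longest coding sequences hold 5232 bases each and differ at 13 positions, which is 99.8% identity. The 45 bases from coding base 3331, at chr6:31996055-31996099 for C4A and chr6:32028793-32028837 for C4B (GRCh38, plus strand, exonic), hold 5 of the 13, shown as capitals in the GENCODE transcripts:
C4A: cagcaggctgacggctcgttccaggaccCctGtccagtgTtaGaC
C4B: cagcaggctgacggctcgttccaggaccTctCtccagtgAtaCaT
Of the 100-base windows of the main transcripts, 87.8% in C4A and 88.4% in C4B occur also in the other copy. C4A stood at 161, 506, 267 and 275 CPM in control, 384, 205, 357 and 192 CPM with formoterol, 321, 196, 278 and 284 CPM with fatty acids and 455, 155, 460.0 and 486 CPM with the combination. The 4 control libraries alone spanned nearly the whole range of the 16. C4B stood at 231, 311, 251 and 299 CPM in control, 285, 276, 289 and 255 CPM with formoterol, 274, 248, 279.5 and 273 CPM with fatty acids and 287, 182, 438 and 274 CPM with the combination. C4A made up 41.1% to 64.0% of the sum of both copies in the single libraries, a split that is uncertain for the reason above. With the 16 libraries neither copy was called in any of the 6 comparisons, nor was their sum, which stood at -0.10 ± 0.22 with fatty acids (edgeR adjusted p = 0.828) and at 0.25 ± 0.22 with the combination (edgeR adjusted p = 0.541). C4A was called higher when fatty acids were added to formoterol once combination replicate 2 was left out, at 0.72 ± 0.24 (edgeR adjusted p = 0.0447).

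Of the 7 terminal pathway genes, 3 rose with fatty acids and 4 with formoterol, beside 8.93% and 5.76% of all tested genes. C5, whose cleavage releases C5a and starts the attack complex, stood at 279, 341, 219 and 268 CPM in control, 529.5, 506, 522 and 485 CPM with formoterol, 402, 377, 451 and 421 CPM with fatty acids and 459, 216, 489.8 and 480.1 CPM with the combination. All 4 formoterol libraries lay above all fatty acid libraries, and these above all control libraries. The change was 0.88 ± 0.17 (edgeR adjusted p = 0.00209) with formoterol and 0.58 ± 0.17 (edgeR adjusted p = 0.0216) with fatty acids. C6, which binds C5b, stood at 319, 369, 252 and 322 CPM in control, 545, 518, 527 and 530.3 CPM with formoterol, 465, 449, 487 and 474 CPM with fatty acids and 473, 226, 517 and 472 CPM with the combination, with 0.75 ± 0.16 (edgeR adjusted p = 0.00449) for formoterol and 0.57 ± 0.16 (edgeR adjusted p = 0.0163) for fatty acids. C8B, the beta chain of C8, had the largest fold among the members with fatty acids, 3.16-fold. It stood at 6.74, 4.52, 2.13 and 4.22 CPM in control, 12.05, 9.24, 12.2 and 10.4 CPM with formoterol, 14.03, 11.3, 17.3 and 12.9 CPM with fatty acids and 14.8, 2.67, 17.8 and 12.1 CPM with the combination. Its change was 1.66 ± 0.37 (edgeR adjusted p = 0.00293) with fatty acids and 1.32 ± 0.36 (edgeR adjusted p = 0.0235) with formoterol. C8A, the alpha chain, whose gene lies beside C8B on chromosome 1, stood at 28.1, 32.4, 19.7 and 31.97 CPM in control, 55.8, 57.8, 65.8 and 65.6 CPM with formoterol, 42.8, 34.4, 39.9 and 39.6 CPM with fatty acids and 46.1, 13.1, 48.5 and 44.5 CPM with the combination. It rose with formoterol, 1.13 ± 0.24 (edgeR adjusted p = 0.00495), and stood at 0.48 ± 0.24 (edgeR adjusted p = 0.199) with fatty acids. C9, the pore-forming subunit, stood at 5.41, 6.55, 3.33 and 4.97 CPM in control, 8.48, 8.14, 7.76 and 8.07 CPM with formoterol, 8.49, 6.38, 10.6 and 8.37 CPM with fatty acids and 10.9, 1.41, 12.5 and 12.4 CPM with the combination and was called in no comparison of the 16 libraries. Leaving out combination replicate 2, C9 was called with both agents, at 0.74 ± 0.17 (edgeR adjusted p = 0.00200) for fatty acids and 0.68 ± 0.17 (edgeR adjusted p = 0.00603) for formoterol. The C9 gene model overlaps DAB2, whose counts were 13.0 times those of C9, but 0% of the 100-base windows of the main C9 transcript occur in another gene. C8G, the gamma chain, ranged over 0.754 to 1.06 CPM in control and 1.63 to 2.11 CPM with fatty acids, and C7 over 0.727 to 1.96 CPM and 1.58 to 2.53 CPM. C8G was called with fatty acids when combination replicate 2 was left out, at 1.02 ± 0.31 (edgeR adjusted p = 0.0183). Leaving out a single library ended the fatty acid call of C5 (control replicates 3 and 4 or fatty acid replicate 3, adjusted p up to 0.0820), that of C6 (control replicate 3, adjusted p up to 0.0648) and the formoterol call of C8B (control replicates 3 and 4 or formoterol replicates 1 and 3, adjusted p up to 0.0914).

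Of the 6 soluble regulators, 3 rose with fatty acids and 4 with formoterol, beside 8.93% and 5.76% of all tested genes. C4BPA, the alpha chain of the C4b-binding protein, stood at 59.2, 63.6, 39.1 and 60.1 CPM in control, 103, 98.9, 105 and 103 CPM with formoterol, 94.2, 89.1, 98.03 and 101 CPM with fatty acids and 99.3, 26.3, 114 and 112 CPM with the combination. C4BPB, its beta chain and neighbour on chromosome 1, stood at 17.7, 17.98, 13.3 and 18.7 CPM in control, 32.9, 30.7, 32.7 and 33.7 CPM with formoterol, 28.03, 22.6, 23.6 and 26.2 CPM with fatty acids and 23.00, 9.13, 25.6 and 28.7 CPM with the combination. Both chains lay above every control library in all 8 libraries that had 1 agent. The formoterol change was 0.88 ± 0.26 (edgeR adjusted p = 0.0330) for C4BPA and 0.94 ± 0.21 (edgeR adjusted p = 0.00570) for C4BPB. The fatty acid change of C4BPA was 0.78 ± 0.26 (edgeR adjusted p = 0.0423), and C4BPB stood at 0.57 ± 0.21 (edgeR adjusted p = 0.0669), which passed the threshold without combination replicate 2 (edgeR adjusted p = 0.000158). VTN, which binds nascent attack complexes, stood at 753, 795, 572 and 794 CPM in control, 1249, 1271, 1302 and 1394 CPM with formoterol, 1149.7, 958, 1083 and 1135 CPM with fatty acids and 1127, 457, 1217 and 1131 CPM with the combination. Its change was 0.84 ± 0.19 (edgeR adjusted p = 0.00586) with formoterol and 0.57 ± 0.19 (edgeR adjusted p = 0.0381) with fatty acids. CFI, the protease that cleaves C3b and C4b, stood at 30.4, 33.8, 28.9 and 30.2 CPM in control, 34.6, 34.5, 41.7 and 43.2 CPM with formoterol, 38.9, 40.4, 38.98 and 41.8 CPM with fatty acids and 39.3, 28.9, 37.9 and 40.2 CPM with the combination. The CFI changes were smaller, 0.38 ± 0.10 (edgeR adjusted p = 0.00994) with fatty acids and 0.32 ± 0.10 (edgeR adjusted p = 0.0378) with formoterol, and 71.1% of its transcript windows lie in a read-through gene model with 0 counts. SERPING1 ranged over 1143 to 1184 CPM in control and 1181 to 1311 CPM with fatty acids and was not called.

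These soluble regulator calls rest on single libraries and on the tool to different degrees. DESeq2 did not call C4BPA with fatty acids (adjusted p = 0.0821) or with formoterol (adjusted p = 0.0560). With library totals alone as the scale, CFI was not called with formoterol (edgeR adjusted p = 0.155). C4BPA with fatty acids was lost without control replicates 1, 2, 3 and 4, formoterol replicates 1, 2 and 3 or fatty acid replicates 1, 2, 3 and 4 (adjusted p up to 0.138), each left out alone, and its formoterol call without control replicates 1, 3 and 4 or formoterol replicates 1, 2, 3 and 4 (adjusted p up to 0.122). VTN with fatty acids was lost without control replicates 1, 3 and 4 or fatty acid replicates 1, 3 and 4 (adjusted p up to 0.129). CFI with formoterol was lost without control replicates 1, 3 and 4, formoterol replicates 3 and 4 or fatty acid replicate 1 (adjusted p up to 0.144). The formoterol calls of C4BPB and VTN held with each of the 16 libraries left out.

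The 4 CFHR genes encode secreted proteins of a cluster on chromosome 1 that compete with regulators for C3b. Of these, 1 rose with fatty acids and 3 with formoterol, beside 8.93% and 5.76% of all tested genes. CFHR3 stood at 4.72, 6.47, 3.53 and 5.67 CPM in control, 11.1, 11.9, 9.88 and 10.9 CPM with formoterol, 15.1, 10.7, 12.4 and 14.99 CPM with fatty acids and 17.98, 6.73, 16.96 and 19.6 CPM with the combination. All 12 treated libraries lay above all control libraries. Its change was 1.38 ± 0.24 (edgeR adjusted p = 0.000289) with fatty acids, 1.10 ± 0.24 (edgeR adjusted p = 0.00489) with formoterol and 1.59 ± 0.24 (edgeR adjusted p = 6.51e-05) with the combination. CFHR4 stood at 4.04, 4.67, 2.77 and 2.93 CPM in control, 5.74, 7.495, 8.31 and 7.88 CPM with formoterol, 7.18, 4.72, 6.07 and 6.24 CPM with fatty acids and 10.1, 3.50, 10.4 and 9.41 CPM with the combination, with 1.03 ± 0.26 (edgeR adjusted p = 0.0133) for formoterol, 0.75 ± 0.26 (edgeR adjusted p = 0.0515) for fatty acids and 1.21 ± 0.26 (edgeR adjusted p = 0.00230) for the combination. CFHR2 stood at 37.9, 45.8, 25.4 and 38.9 CPM in control, 56.8, 62.96, 78.9 and 74.1 CPM with formoterol, 61.7, 52.8, 50.8 and 56.4 CPM with fatty acids and 52.9, 17.00, 61.97 and 65.6 CPM with the combination and rose with formoterol, 0.88 ± 0.25 (edgeR adjusted p = 0.0281). CFHR5 stood at 4.40, 4.99, 1.96 and 2.54 CPM in control, 6.25, 5.25, 5.25 and 5.64 CPM with formoterol, 5.36, 2.83, 4.44 and 2.73 CPM with fatty acids and 3.09, 0.881, 2.67 and 3.42 CPM with the combination. The combination libraries of CFHR5 all lay below all formoterol libraries, and the change on adding fatty acids to formoterol was -1.15 ± 0.33 (edgeR adjusted p = 0.0169). Of 100-base transcript windows, 2.36% in CFHR4 occur also in CFHR3, and 4.89% in CFHR2 occur in a gene outside the members, so a small part of their reads may be shared. The CFHR2 call with formoterol was lost without control replicates 1, 3 and 4 or formoterol replicates 3 and 4 (adjusted p up to 0.111), and that of CFHR4 without control replicate 3 (adjusted p up to 0.0575).

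**Figure D3:**
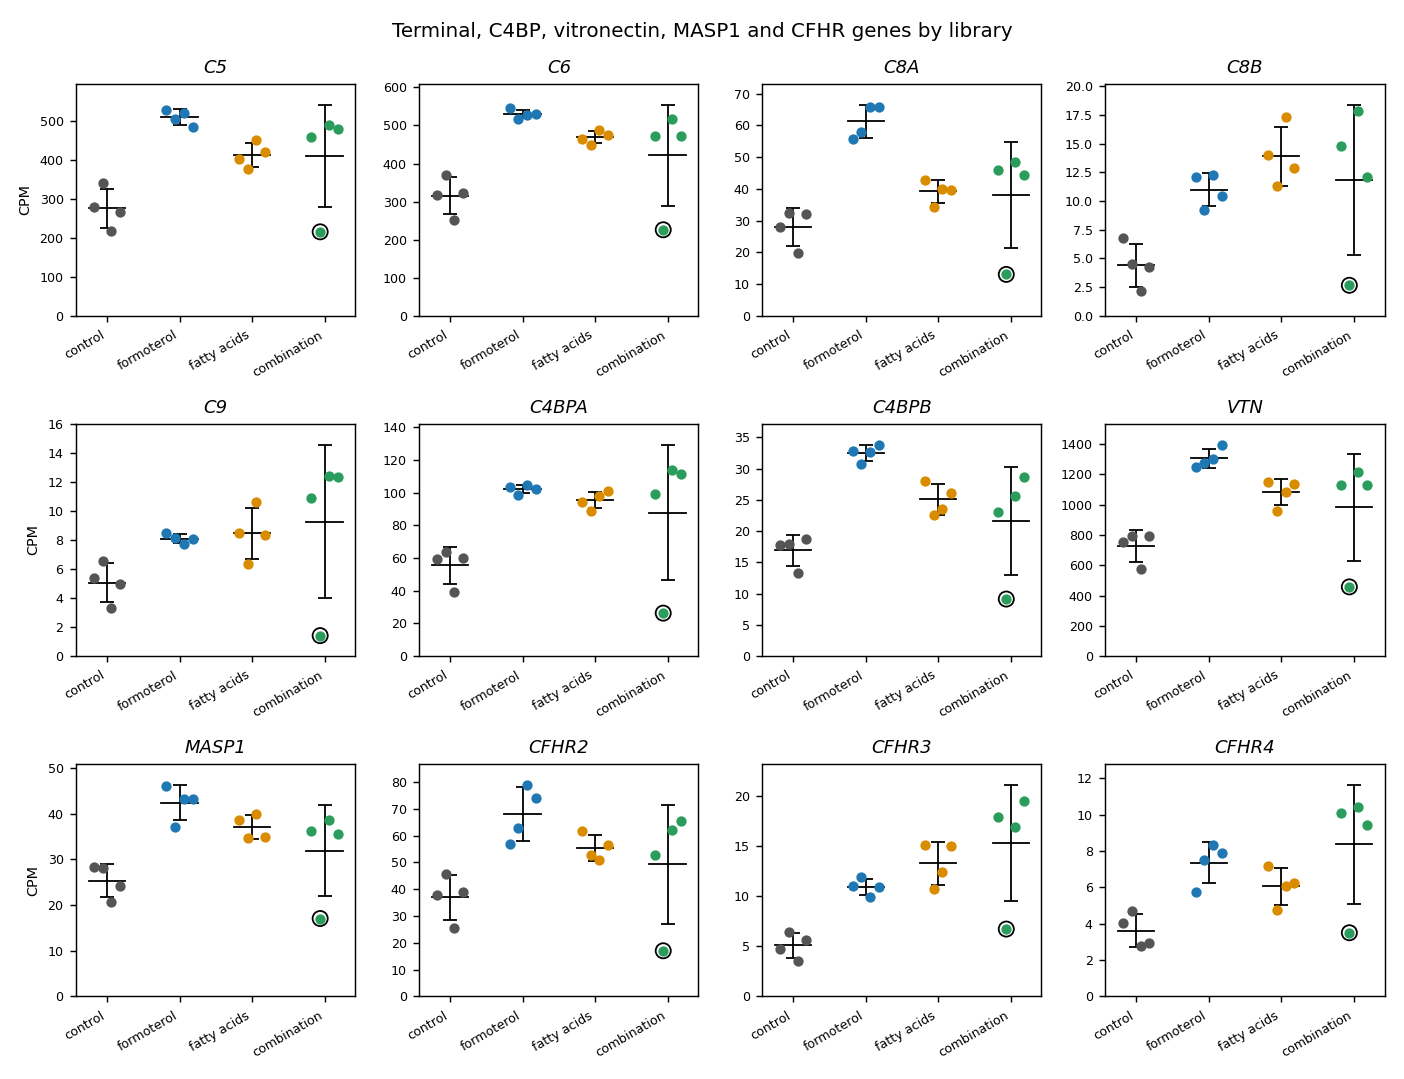
CPM of 12 complement genes in each library by group, with a bar for the mean, whiskers for the SD over 4 libraries and a ring around combination replicate 2. C5 with formoterol lies between 485 and 529.5 CPM, above the control libraries at 219 to 341 CPM, and the ringed point is the lowest of its group in all 12 panels.

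Of the 3 membrane regulators, 2 fell with fatty acids, beside 7.62% of all tested genes. With formoterol none passed the threshold, in edgeR, in DESeq2 or at an unadjusted p under 0.05. CD55, decay-accelerating factor, which takes convertases apart, stood at 216, 198, 206 and 224 CPM in control, 189.6, 193, 189 and 216 CPM with formoterol, 148, 146, 147 and 155 CPM with fatty acids and 164, 194, 174 and 186 CPM with the combination. All 4 fatty acid libraries lay below every other library of the 16. The change was -0.50 ± 0.06 (edgeR adjusted p = 8.03e-06) with fatty acids and -0.10 ± 0.06 (edgeR adjusted p = 0.371) with formoterol. CD59, which blocks C9 assembly on the cell surface, stood at 1768, 1635, 1541 and 1684 CPM in control, 1533, 1609, 1655 and 1716 CPM with formoterol, 1345, 1367, 1251 and 1192 CPM with fatty acids and 1409, 1476, 1440.1 and 1454 CPM with the combination. The fatty acid change was -0.36 ± 0.06 (edgeR adjusted p = 0.000120), and its formoterol value was -0.03 ± 0.06 (edgeR adjusted p = 0.842). CD46, the cofactor for cleavage of C3b and C4b, stood at 509, 529, 465 and 481 CPM in control, 495, 547, 479 and 485 CPM with formoterol, 508, 555, 519 and 502 CPM with fatty acids and 489.9, 545, 484 and 494 CPM with the combination, with groups that overlap throughout and 0.07 ± 0.06 (edgeR adjusted p = 0.494) for fatty acids. The CD55 and CD59 falls with fatty acids passed the threshold with each of the 16 libraries left out, with adjusted p of at most 7.38e-05 and 0.000853, but in size they were below 1.5-fold.

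**Figure D4:**
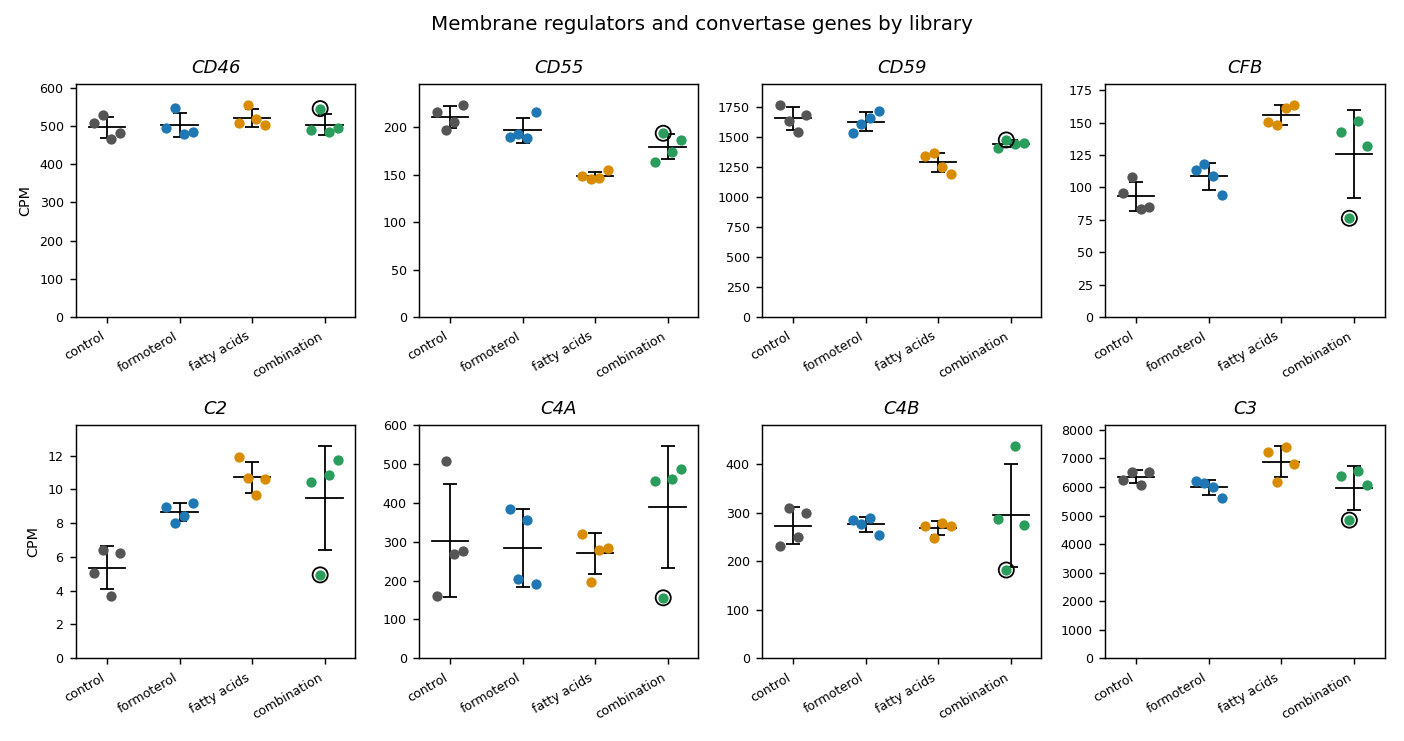
CPM of the 3 membrane regulators and 5 convertase genes in each library by group, with mean and SD over 4 libraries and a ring around combination replicate 2. CD55 with fatty acids lies between 146 and 155 CPM, below the control libraries at 198 to 224 CPM.

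Formoterol added to fatty acids moved 1 member. CD55 rose by 0.27 ± 0.06 (edgeR adjusted p = 0.0200), from 148, 146, 147 and 155 CPM to 164, 194, 174 and 186 CPM, against a background of 1.68% higher and 1.12% lower. The median over the members was -0.13, beside 0.000429 over all genes, with 8 of 32 members above 0. This direction turned without combination replicate 2, where the median was 0.10 and 20 of 32 were above 0. This CD55 call was lost without fatty acid replicates 1, 2 and 3 or combination replicate 4 (adjusted p up to 0.0678), each left out alone. Without combination replicate 2, 2 members were called, both higher (background 1.78% and 1.40%): CD55, at 0.23 ± 0.06 (edgeR adjusted p = 0.0401), and CFHR4, at 0.72 ± 0.18 (edgeR adjusted p = 0.0218).

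Fatty acids added to formoterol lowered 3 members, CFHR5, CLU and CD59, and raised 0, against 8.97% and 9.48% of all genes. The share of members lowered was close to that of all genes. DESeq2 called 3 lower and 0 higher, and at an unadjusted p under 0.05 edgeR had 8 lower and 1 higher, CFHR3. Shares of all genes by DESeq2 or at an unadjusted p are not given here, so these counts are not set against a background. The median over the members was -0.00123, beside 0.01 over all genes, and 0.08 without combination replicate 2. CLU stood at 4078, 3971, 3779.8 and 4448 CPM in control, 4309.8, 4475, 4539 and 4782 CPM with formoterol, 4336, 4109, 4087 and 4125 CPM with fatty acids and 3813, 2494, 3981 and 4045 CPM with the combination. Its change on adding fatty acids was -0.34 ± 0.10 (edgeR adjusted p = 0.0223). CD59 changed by -0.17 ± 0.06 (edgeR adjusted p = 0.0392), and its call was lost without formoterol replicates 2, 3 and 4 or combination replicates 1, 3 and 4 (adjusted p up to 0.115). With library totals alone as the scale, neither CD59 (edgeR adjusted p = 0.739) nor CLU (edgeR adjusted p = 0.0518) was called. The CLU call was lost without formoterol replicate 4 (adjusted p up to 0.0638), and that of CFHR5 held with each of the 16 libraries left out. Without combination replicate 2, 4 members were called higher and 5 lower (background 7.17% and 7.41%). The higher ones were C4A, C9, CFB and CFHR3, and the lower ones C4BPB, C8A, CFHR5, CD59 and CLU. CFB stood at 0.39 ± 0.08 (edgeR adjusted p = 0.00173), beside 0.21 ± 0.14 (edgeR adjusted p = 0.332) with all libraries.

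With the combination, 6 members rose and 2 fell against control (background 7.58% and 6.68%), and the median was 0.36, beside 0.00430 over all genes. The rises were CFHR3, CFHR4, C8B, C2, C5 and CFB, and the falls CD55 and CD59. C8B changed by 1.43 ± 0.36 (edgeR adjusted p = 0.0100), C2 by 0.83 ± 0.21 (edgeR adjusted p = 0.00830), C5 by 0.57 ± 0.17 (edgeR adjusted p = 0.0248) and CFB by 0.43 ± 0.14 (edgeR adjusted p = 0.0410). CD55 changed by -0.23 ± 0.06 (edgeR adjusted p = 0.0154) and CD59 by -0.20 ± 0.06 (edgeR adjusted p = 0.0225). Without combination replicate 2, 16 rose and 2 fell (background 8.51% and 6.67%). The 10 further rises were C4BPA, C4BPB, C6, C8A, C8G, C9, CFHR2, CFI, MASP1 and VTN, with C4BPA at 0.96 ± 0.10 (edgeR adjusted p = 8.59e-08) and C9 at 1.23 ± 0.18 (edgeR adjusted p = 1.05e-05). With only the 2 groups in the fit, CFHR3 and CFHR4 were the 2 members called, and with no filter on low counts CD59 was not (edgeR adjusted p = 0.0549). The CFB call was also lost with DESeq2 (adjusted p = 0.0684) and with the replicate number as a block (edgeR adjusted p = 0.0604). Other single libraries mattered as well. The CFB call was lost without control replicates 1, 3 and 4, formoterol replicates 1 and 3, fatty acid replicates 1, 2 and 3 or combination replicates 1, 3 and 4 (adjusted p up to 0.151). That of C5 was lost without control replicates 1, 3 and 4 or combination replicates 1, 3 and 4 (adjusted p up to 0.0909). CD55 lost its call without control replicate 4 or combination replicate 1 (adjusted p up to 0.0703), and CD59 without control replicates 1 and 4 or combination replicate 1 (adjusted p up to 0.0891).

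The interaction asks whether the effect of formoterol differs with and without fatty acids. It was below 0 for 24 of the 32 members, with a median of -0.54 beside 0.01 over all genes, where a value below 0 means that the combination lay below the sum of the 2 single effects on the log scale. Without combination replicate 2 the median was -0.35, and 10 of 32 members were above 0, beside 8 with all libraries. It passed the threshold for 6 negative members and 1 positive one, against 3.38% and 2.12% of all genes. The negative ones were C8A at -1.17 ± 0.34 (edgeR adjusted p = 0.0479), C4BPB at -1.16 ± 0.29 (edgeR adjusted p = 0.0245), VTN at -0.98 ± 0.26 (edgeR adjusted p = 0.0315), MASP1 at -0.96 ± 0.23 (edgeR adjusted p = 0.0208), C6 at -0.90 ± 0.22 (edgeR adjusted p = 0.0231) and C5 at -0.89 ± 0.24 (edgeR adjusted p = 0.0315). The positive one was CD55, at 0.37 ± 0.09 (edgeR adjusted p = 0.0202). Without combination replicate 2 the counts were 10 negative and 1 positive (background 3.60% and 1.94%). The 4 added were C4BPA, C8B, CFHR2 and CLU, with C5 at -0.68 ± 0.12 (edgeR adjusted p = 0.000760) and VTN at -0.74 ± 0.11 (edgeR adjusted p = 0.000113). Of the 8 hepatocyte markers, 6 were called negative in the interaction, and all 8 without combination replicate 2. The shares of all genes called negative were 3.38% and 3.60%. The part of these markers was not tested.

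Several interaction calls depended on single libraries. Without control replicate 3 it was called for 1 member, CD55, which was positive (background 0.917% positive and 1.48% negative). C5 lost its call without control replicates 3 and 4, formoterol replicates 1, 3 and 4 or fatty acid replicates 1, 3 and 4 (adjusted p up to 0.0796). C8A lost it with DESeq2 (adjusted p = 0.0708) and without control replicates 1, 3 and 4, formoterol replicates 1, 2, 3 and 4, fatty acid replicates 1, 2, 3 and 4 or combination replicate 1 (adjusted p up to 0.113). VTN lost it without control replicate 3, formoterol replicates 3 and 4 or fatty acid replicates 1, 3 and 4 (adjusted p up to 0.0795) and C4BPB without control replicate 3 or fatty acid replicate 1 (adjusted p up to 0.0643). For C6 it was lost without control replicate 3 (adjusted p up to 0.0599) and for MASP1 without control replicate 3 (adjusted p up to 0.0572).

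The members furthest below their group in combination replicate 2 were C9, C8B, C4BPA, C8A, CFHR2 and CFHR5. Relative to the mean of the other 3 combination libraries, C9 stood at 0.119, C8B at 0.179, C4BPA at 0.243, C8A at 0.282, CFHR2 at 0.283, CFHR5 at 0.288, VTN at 0.394 and C5 at 0.453. C3 stood at 0.765. The 3 members above the other libraries were the membrane regulators, CD46 at 1.11, CD55 at 1.11 and CD59 at 1.03. Its summed hepatocyte markers, at 17024 CPM, were the lowest of the 16 libraries.

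**Figure D5:**
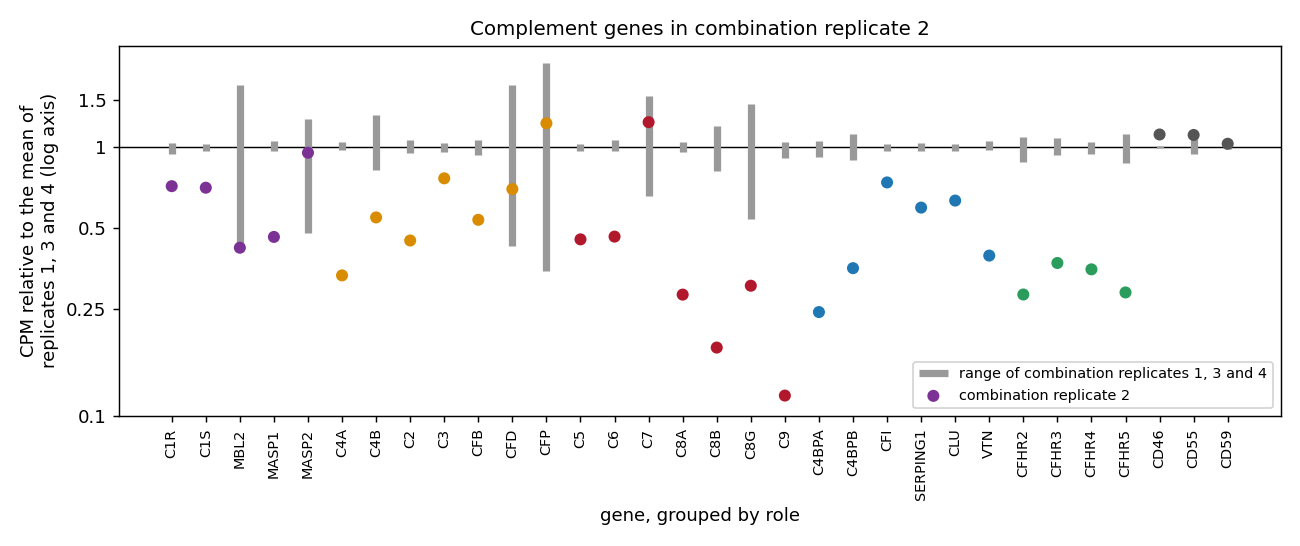
CPM of each complement gene in combination replicate 2 relative to the mean of combination replicates 1, 3 and 4 on a log axis, with grey bars for the range of those 3 and colours by role. C9 lies lowest at 0.119, and CD46, CD55 and CD59 lie above 1.

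The promoters of the members were searched for sites of factors known to act on liver complement genes. RefSeq (GRCh38.p14) promoters from 250 bases before to 50 after the start matched 21 of the 32 members, with 33 windows in all. Both strands were searched. The STAT site TTCNNNGAA occurred in 10 of the 33 windows (30.3%), in C1R, C4BPB, C7, CD59, CFB, MASP2, MBL2 and VTN, against 7.66% of all 35116 promoters. Some windows of 1 gene overlap and hold the same match. Of the genes with a STAT match, C4BPB, CFB and VTN were called higher with fatty acids or formoterol, and CD59 lower with fatty acids. C1R, C7, MASP2 and MBL2 were called with neither agent in the fit of 16 libraries. The C/EBP site TTNNGCAA occurred in 21.2% against 10.5%, and the HNF1 core GTTAAT in 15.2% against 6.88%. The CREB core TGACG, of the factor that cyclic AMP activates, occurred in 21.2% against 24.6%, and the full site TGACGTCA in 0 windows against 1.85%. An interferon response site occurred in 3.03% against 3.57%, and the HNF4 site CAAAGTCCA, a nuclear receptor direct repeat and the NF-kB site in 0 windows, against 0.384%, 0.0228% and 0.191% of all promoters. STAT and C/EBP matches do not overlap in the windows shown, and a match is a description of letters, not of binding.

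The 250 upstream bases are shown for CFB, called with fatty acids, for VTN, C4BPB and C5, called with formoterol, and for CD55, called lower with fatty acids. Capitals mark every match to the motifs above. The windows of C8A, C8B and MASP1, which were called higher with formoterol and are not shown, held no match. CFB lies at chr6:31945845-31946094 on the plus strand, with an interferon response match followed by a STAT match. VTN lies at chr17:28370308-28370557 on the minus strand, with a STAT match between 2 C/EBP matches. C4BPB, at the third of its 3 listed starts, lies at chr1:207089033-207089282 on the plus strand, with a STAT match. The 250 bases upstream of its first listed start, chr1:207088610-207088859, held no match. That start is the nearest to the start of the count table's gene model. C5, at the start that the count table's gene model also uses, lies at chr9:121050276-121050525 on the minus strand, with an HNF1 core. The 250 bases upstream of the other listed start of C5, chr9:121074866-121075115, held a CREB core. CD55 lies at chr1:207321428-207321677 on the plus strand, with 2 CREB cores.
CFB: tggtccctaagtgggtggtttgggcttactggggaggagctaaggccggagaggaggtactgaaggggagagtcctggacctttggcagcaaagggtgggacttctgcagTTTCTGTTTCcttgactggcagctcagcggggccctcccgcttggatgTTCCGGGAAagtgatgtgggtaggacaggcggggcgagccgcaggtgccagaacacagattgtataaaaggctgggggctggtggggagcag
VTN: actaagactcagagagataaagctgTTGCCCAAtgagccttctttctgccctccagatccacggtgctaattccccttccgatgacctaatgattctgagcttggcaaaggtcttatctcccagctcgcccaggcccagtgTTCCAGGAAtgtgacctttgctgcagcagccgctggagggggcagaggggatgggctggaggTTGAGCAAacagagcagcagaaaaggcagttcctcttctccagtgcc
C4BPB: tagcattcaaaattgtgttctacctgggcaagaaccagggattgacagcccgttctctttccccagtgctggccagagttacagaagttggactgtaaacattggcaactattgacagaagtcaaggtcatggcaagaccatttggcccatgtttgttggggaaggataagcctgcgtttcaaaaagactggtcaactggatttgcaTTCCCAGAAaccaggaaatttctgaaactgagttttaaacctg
C5: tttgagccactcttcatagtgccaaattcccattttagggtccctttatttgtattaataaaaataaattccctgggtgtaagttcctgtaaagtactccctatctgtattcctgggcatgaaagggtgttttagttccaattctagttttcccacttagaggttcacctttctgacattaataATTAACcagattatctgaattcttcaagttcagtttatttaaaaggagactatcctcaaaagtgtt
CD55: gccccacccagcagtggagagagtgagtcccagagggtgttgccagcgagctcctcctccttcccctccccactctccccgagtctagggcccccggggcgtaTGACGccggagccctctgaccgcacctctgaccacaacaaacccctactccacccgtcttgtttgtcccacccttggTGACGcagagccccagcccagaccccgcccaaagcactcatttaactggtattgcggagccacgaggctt

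Of 31 other complement genes, which include receptors, pentraxins, collectins and carboxypeptidases, 17 passed the count filter. With fatty acids 2 rose and 3 fell, beside 8.93% and 7.62% of all genes, and with formoterol 4 rose, beside 5.76%. C5AR2, a receptor for C5a, stood at 4.96, 3.63, 5.46 and 6.18 CPM in control, 5.28, 4.85, 5.63 and 4.83 CPM with formoterol, 2.58, 3.16, 2.37 and 2.78 CPM with fatty acids and 7.82, 8.19, 7.94 and 7.54 CPM with the combination. The fatty acid libraries of C5AR2 were the lowest and the combination libraries the highest, with no overlap between these and control. Its change was -0.89 ± 0.16 (edgeR adjusted p = 0.000506) with fatty acids and 1.53 ± 0.16 (edgeR adjusted p = 3.81e-06) on adding formoterol to them, and the interaction was 1.51 ± 0.22 (edgeR adjusted p = 0.000848). CRP, the pentraxin that binds C1q, rose with formoterol by 1.07 ± 0.24 (edgeR adjusted p = 0.00578), on adding formoterol to fatty acids by 1.05 ± 0.23 (edgeR adjusted p = 0.0141) and with the combination by 1.58 ± 0.24 (edgeR adjusted p = 6.80e-05). It stood at 29.7, 28.8, 22.02 and 28.03 CPM in control, 54.8, 59.7, 56.7 and 57.4 CPM with formoterol, 40.4, 44.4, 36.5 and 36.4 CPM with fatty acids and 103, 28.1, 96.7 and 98.1 CPM with the combination. CPB2, a carboxypeptidase that trims anaphylatoxins, changed by 0.69 ± 0.19 (edgeR adjusted p = 0.0216) with formoterol. C1QB and C1QC, chains of C1q made mainly by macrophages, had 0 counts in all libraries.

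Among 24 regulators of complement gene transcription, all tested, 3 rose and 5 fell with fatty acids, and 3 rose and 3 fell with formoterol. The shares of all tested genes called were 8.93% and 7.62% with fatty acids and 5.76% and 4.57% with formoterol. IL1R1, the interleukin-1 receptor, changed by -0.43 ± 0.05 (edgeR adjusted p = 4.36e-06) with fatty acids and -0.34 ± 0.05 (edgeR adjusted p = 0.000242) with formoterol. STAT3, which carries the interleukin-6 signal, changed by -0.30 ± 0.05 (edgeR adjusted p = 0.000136) with fatty acids. HNF4A, a hepatocyte transcription factor, changed by 0.77 ± 0.13 (edgeR adjusted p = 0.000781) with formoterol, and NR1H4, the bile acid receptor FXR, by 0.81 ± 0.15 (edgeR adjusted p = 0.00141). SOCS3, an inhibitor of that cytokine pathway, rose by 0.36 ± 0.08 (edgeR adjusted p = 0.0110) when formoterol was added to fatty acids. The list medians were 0.02 with fatty acids and -0.08 with formoterol, beside 0.01 and -0.00217 over all genes.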

How the data were processed

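The deposited table holds raw read counts per gene that the authors made from aligned reads; per the submitters' processing notes, HISAT2 2.0.5 and DESeq2 were used. Neither the program that assigned reads to genes nor its strand setting is stated in the labels or notes. The notes name a mouse build, but all 58735 gene IDs are human and carry the names of GENCODE release 29, so the counts were read as human; gene lengths came from the same deposited table. Counts were filtered with edgeR 4.0.16 filterByExpr (18121 genes), scaled with TMM and tested with quasi-likelihood F tests on 4 group means over 16 libraries, in R 4.3.3, with Benjamini-Hochberg adjustment over all tested genes at 0.05. The fit was also run on simulated counts, with an outcome not given here. These counts held no outlying library, so the run does not bear on the dependence on single libraries. Levels per kilobase divide CPM by gene length. Promoters were RefSeq windows, and C4 and overlap checks used GENCODE 29. Alternatives were DESeq2 1.42.0, other scalings, filters and designs, and each library left out. The members and lists were chosen with earlier results of these data known. Genes named with a change from the lists of other complement genes and of transcription regulators are among the 3 with the smallest p per list and comparison. Cell type markers, and C1QB and C1QC with 0 counts, were named apart from this rule. Replicates of 1 group differed by more than sampling noise, with a chi-square of 6.62 to 106 per gene. Sequencing reads were not used here.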

Additional observations from a re-analysis of the deposited data

Results flagged for a closer look

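Within-group extremes were sought for each member in each group of 4 libraries, 128 sets in all. A set was named where the gap between 1 library and its nearest neighbour took up more of the group's range than Dixon's 95% limit, which chance passes in about 1 in 20 sets. Of the 128 sets, 18 passed, 13 of them through combination replicate 2. In that library C1S, at 1350.1 CPM, C5, at 216 CPM, C6, at 226 CPM, C8A, at 13.1 CPM, and C9, at 1.41 CPM, lay far below the other 3. So did C4A at 155 CPM, C4BPA at 26.3 CPM, VTN at 457 CPM, CLU at 2494 CPM, SERPING1 at 723 CPM, MASP1 at 17.0 CPM and CFHR4 at 3.50 CPM. CD46, at 545 CPM, lay above the other 3. The other 5 sets lay in different libraries. C1S was low in control replicate 3 at 1737 CPM, and C7 was high in control replicate 1 at 1.96 CPM. CD55 was high in formoterol replicate 4 at 216 CPM. With fatty acids, CFP was high in replicate 4 at 0.379 CPM and CLU in replicate 1 at 4336 CPM.

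The effect of formoterol differed with and without fatty acids, by the interaction term at the 0.05 threshold of edgeR, for 7 members. The log2 values were -1.16 for C4BPB, -0.89 for C5, -0.90 for C6, -1.17 for C8A, -0.96 for MASP1, -0.98 for VTN and 0.37 for CD55. For the first 6, combination replicate 2 was the lowest combination library, and for CD55 the highest.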

How the results depend on the processing

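Of the members called, fatty acids versus control gave 12, and 5 when a change of at least 1.5-fold was also asked for. Formoterol versus control gave 13, and no change of setting other than leaving out a library moved it by over 1.5 times. Formoterol added to fatty acids gave 1, with 0 at 1.5-fold, 0 with only the 2 groups compared and 3 with no filter. Fatty acids added to formoterol gave 3, with 1 at 1.5-fold, 1 with only the 2 groups, 5 with at least 1 CPM in 4 libraries, 5 with DESeq2 size factors and 12 with no filter. The combination versus control gave 8, with 4 at 1.5-fold, 2 with only the 2 groups and 16 with no filter. The interaction gave 7, and 17 with no filter. Shares of all genes called under these settings are not given here. A shift of the members is thus not told apart from one over all genes. The cause of these shifts was not tested.

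With each library left out in turn, the number called ranged over 7 to 18 for fatty acids, 7 to 16 for formoterol, 0 to 2 for formoterol added to fatty acids, 1 to 9 for fatty acids added to formoterol, 4 to 18 for the combination and 1 to 11 for the interaction. Without control replicate 3 it was 7, 7 and 1 for fatty acids, formoterol and the interaction. The shares of all genes called in that setting were 6.82% higher and 6.14% lower with fatty acids. With formoterol they were 2.93% and 2.47%, and for the interaction 0.917% positive and 1.48% negative. Shares without combination replicate 2 stand beside its counts above, and those for other libraries are not given here.

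No pairing of the libraries by replicate number was seen. Deviations of same-numbered libraries correlated at -0.113 to 0.0825 over genes, and those of different numbers at -0.101 to 0.138. A weak pairing could go unseen in these values. With the replicate number as a block, 43 of the 44 calls were kept, that of CFB with the combination was lost (edgeR adjusted p = 0.0604) and 3 were gained, and fatty acids added to formoterol gave 5.

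Over 4749 single-gene results under all alternatives, 941 calls were kept, 152 lost and 116 gained, and 0 called values reversed sign. Summing C4A and C4B was chosen after seeing the data. Genes such as CFP and MBL2, under 1 CPM in control, allow only large changes to be seen.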
